A study of Mus musculus with 40 samples.

Results

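The 8 genes described here, Il4ra, Arg1, Chil3, Retnla, Ccl17, Mrc1, Clec4n and Pdcd1lg2, mark macrophages activated by type 2 cytokines, a state called alternative activation. They were chosen by name as known markers of that state, with earlier results of these data known. Each was found by its gene symbol among the 55536 genes counted. All 8 passed the low-count filter in both models. RNA was measured in whole left lungs of C57BL/6 mice, with 40 libraries in 8 groups of 5 replicates, under 2 ways of inducing lung fibrosis. The question was what saracatinib, an inhibitor of Src family kinases, did in fibrotic lungs.

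In the bleomycin model the groups were bleomycin with saracatinib, bleomycin with vehicle, saline with saracatinib and saline with vehicle. Bleomycin, a drug that breaks DNA and injures the alveolar epithelium, was given by the oropharyngeal route at 1.5 U/kg, and saline went to the other mice of that model. In the second model the groups were Ad-TGF-β1 with saracatinib, Ad-TGF-β1 with vehicle, empty vector with saracatinib and empty vector with vehicle. Ad-TGF-β1 is an adenovirus in which the CMV promoter, which is not restricted to one cell type, drives mouse TGF-β1, and virus or empty vector was given through the nose. Saracatinib at 20 mg/kg or its vehicle was gavaged daily from day 10 in every group, and the lungs were taken on day 28. Whether the last gavage was on day 27 or 28 is not fully clear from the labels. Mice of both sexes were studied, and the sex of each mouse is not used here.

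Alternative activation starts when IL-4 or IL-13, made mainly by T helper 2 cells, innate lymphoid cells and granulocytes, binds receptors that share the IL-4Rα chain. Janus kinases then phosphorylate STAT6, which switches on genes for arginine use, chitinase-like and resistin-like secreted proteins, lectin receptors, chemokines and an inhibitory ligand of T cells. In the lung such macrophages are known from worm infection, allergic airway disease and tissue repair, and they are found in fibrotic lungs of mice treated with bleomycin. Clec4n, the gene of the fungal receptor Dectin-2, is less bound to this state than the other members, since many myeloid cells carry it.

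Total counts ran from 8812233 to 17336972 per library, and no pair of replicates agreed within counting noise. The labels name no batch. Each library has its own title of a number and a group code, and whether that number is a mouse's is not stated. The p-values measure the spread between these libraries. Levels are given in CPM, the usual unit of a gene's counts relative to the total of its library, scaled by the TMM method over all 40 libraries. Library 3 of the bleomycin vehicle group stood apart: it was the highest of its group for 6 of the 8 genes and had the lowest TMM factor of all at 0.909. Fold changes of Il4ra and Arg1 and the saracatinib difference between models are also given without it. The shares of the macrophage sum below include it and are not given without it. Lung epithelial and endothelial markers summed to 8735 CPM or more in every library, and liver markers to 21.1 CPM at most.

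On the mouse build GRCm38 in the GENCODE M21 annotation, all 8 are protein-coding genes, and positions below span the whole gene. Il4ra lies on chromosome 7 from 125552120 to 125579474 and Arg1 on chromosome 10 from 24915221 to 24927484. Chil3 lies on chromosome 3 from 106147554 to 106167564, Retnla on chromosome 16 from 48842551 to 48844461 and Ccl17 on chromosome 8 from 94810453 to 94812036. Mrc1 lies on chromosome 2 from 14229392 to 14332057, Clec4n on chromosome 6 from 123229843 to 123247021 and Pdcd1lg2 on chromosome 19 from 29410919 to 29471161. Arg1 and Chil3 are on the minus strand and the other 6 on the plus strand. Il4ra shares 571 exonic bases with the antisense gene Gm44876, and whether the authors' counting kept to the strand is not stated, so reads in that stretch are uncertain.

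STAT6 is known for binding the palindrome TTCNNNNGAA, and other STAT proteins for TTCNNNGAA, which is 1 base shorter. Both were searched in windows from 250 bases before to 50 bases after the start site, taken from RefSeq on GRCm38.p6 for 6 of the 8 genes; both motifs read the same on either strand, and no 2 matches overlapped. The longer motif stood in the windows of Retnla, Ccl17 and Pdcd1lg2, and in 6.95% of all 32851 promoter windows. The shorter one stood in those of Chil3 and Ccl17, and in 8.30% of all windows. Neither was found in the windows of Mrc1 and Il4ra. The stretch from 200 to 61 bases before the start is printed for the 4 genes with a match, 5′ to 3′ on the gene's strand, with the matches in capitals. The Retnla stretch is chr16:48842409-48842548 on the plus strand, that of Ccl17 chr8:94810253-94810392 on the plus strand, that of Pdcd1lg2 chr19:29410719-29410858 on the plus strand and that of Chil3 chr3:106167625-106167764 on the minus strand. A match is a description of the letters and shows no binding.
Retnla: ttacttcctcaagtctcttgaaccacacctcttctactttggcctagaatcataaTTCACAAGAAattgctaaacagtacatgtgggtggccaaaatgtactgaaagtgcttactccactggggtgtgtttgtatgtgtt
Ccl17: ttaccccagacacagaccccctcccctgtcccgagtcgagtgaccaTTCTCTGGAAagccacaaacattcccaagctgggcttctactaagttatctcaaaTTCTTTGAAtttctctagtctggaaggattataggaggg
Pdcd1lg2: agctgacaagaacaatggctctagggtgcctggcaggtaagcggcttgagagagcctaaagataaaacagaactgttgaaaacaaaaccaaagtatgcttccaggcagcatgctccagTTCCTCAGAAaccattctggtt
Chil3: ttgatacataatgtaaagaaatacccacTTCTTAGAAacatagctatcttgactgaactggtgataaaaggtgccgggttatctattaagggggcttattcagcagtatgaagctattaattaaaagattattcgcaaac

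Levels per length, in CPM per kilobase of exon, differed widely among the 8 genes. In bleomycin lungs given vehicle, Retnla stood at 318 ± 127 and Chil3 at 243 ± 56.5 CPM per kilobase (mean ± SD, n = 5 here and below), which overlapped. Il4ra followed at 53.8 ± 14.5, Mrc1 at 37.0 ± 12.0 and Clec4n at 28.9 ± 8.15, neighbours that overlapped as well, then Ccl17 at 16.2 ± 3.00, Arg1 at 4.28 ± 3.59 and Pdcd1lg2 at 0.777 ± 0.307. In saline lungs given vehicle, Chil3 stood at 67.7 ± 27.1 and Retnla at 59.4 ± 42.2 CPM per kilobase, while Pdcd1lg2 at 0.305 ± 0.143 and Arg1 at 0.287 ± 0.150 were the lowest and did not differ beyond their spread. Arg1 had between 2 and 11 counts in each saline vehicle library and Pdcd1lg2 between 2 and 10, so their control levels rest on few counts.

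**Figure D1:**
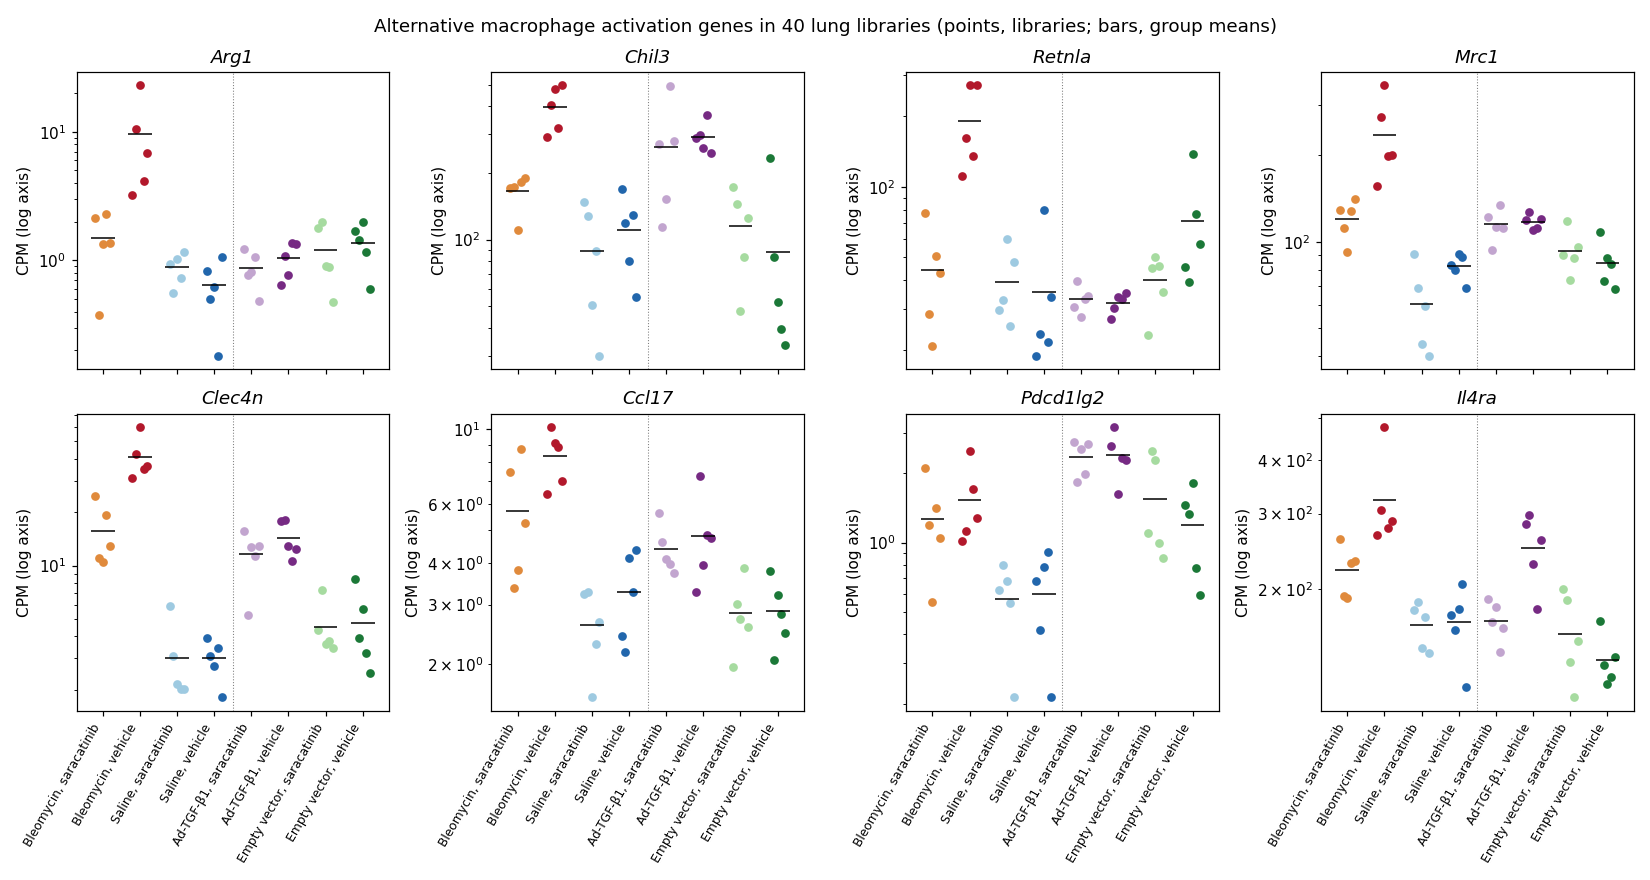
Level of each of the 8 genes in CPM on a log axis, with 1 point per library and a bar at the group mean, for the 8 groups of 5 libraries (bleomycin model left of the dotted line, Ad-TGF-β1 model right of it). Arg1 and Clec4n in bleomycin lungs given vehicle lie above every other library, and Retnla is lower in Ad-TGF-β1 lungs given vehicle than in empty vector lungs given vehicle.

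All 8 genes rose in bleomycin lungs given vehicle against saline lungs given vehicle, the comparison that shows what the injury itself did. The increase was 14.6-fold for the arginase gene Arg1 and 13.3-fold for Clec4n, 5.25-fold for Retnla and 3.53-fold for Chil3, and between 1.89-fold and 2.82-fold for Il4ra, Pdcd1lg2, Ccl17 and Mrc1. Of 18846 genes tested, 40.9% were called either way and 20.6% higher. The median log2 fold change of the 8 genes was 1.66, and that of all tested genes -0.03. For each of the 8, every bleomycin library was above every saline library, as was so for 15.2% of all tested genes. Every adjusted p below comes from edgeR's quasi-likelihood test unless DESeq2 is named, and calls needed one under 0.05. In whole lung, more cells of a type and more RNA per cell cannot be told apart.

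Il4ra encodes the receptor chain through which IL-4 and IL-13 both signal. It had 267, 305, 477, 277 and 289 CPM in bleomycin vehicle lungs, against 174, 161, 180, 206 and 119 CPM in saline vehicle lungs. The increase was the smallest of the 8, and library 3 lay far above the other 4. The log2 fold change was 0.92 ± 0.15 (SE; adjusted p = 0.000118), and 0.74 without that library. The cytokines themselves were hardly seen, with at most 4 counts of Il4 and 5 of Il13 in any of the 40 libraries.

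Arg1 encodes arginase 1, which turns arginine into ornithine, the source of polyamines and proline. It had 3.21, 10.6, 22.9, 4.16 and 6.89 CPM in bleomycin vehicle lungs, against 0.832, 0.499, 0.624, 0.181 and 1.06 CPM in saline vehicle lungs. Bleomycin lungs also differed among themselves by the widest margin of any member, with a coefficient of variation of 83.8%. The log2 fold change was 3.87 ± 0.53 (adjusted p = 1.74e-05), and 3.27 without library 3.

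Chil3 encodes Ym1, a chitinase-like protein secreted by macrophages, and Retnla encodes RELMα, a small secreted protein of macrophages and airway epithelium in mice. Chil3 had 289, 404, 476, 317 and 495 CPM in bleomycin vehicle lungs, against 169, 119, 80.4, 129 and 55.1 CPM in saline vehicle lungs. Its log2 fold change was 1.82 ± 0.34 (adjusted p = 0.000348). The near copy Chil4 had at most 14 counts in any library, and reads common to both genes are uncertain. Retnla had 112, 162, 272, 135 and 271 CPM in bleomycin vehicle lungs, against 19.0, 23.4, 79.6, 21.8 and 33.9 CPM in saline vehicle lungs. One saline lung was thus well above the other 4 and still below every bleomycin lung. The log2 fold change of Retnla was 2.39 ± 0.41 (adjusted p = 0.000144).

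Ccl17 encodes a chemokine that draws T cells bearing CCR4. It had 6.42, 10.2, 9.08, 8.85 and 7.03 CPM in bleomycin vehicle lungs, against 2.42, 2.16, 4.13, 3.26 and 4.36 CPM in saline vehicle lungs. The groups did not overlap, and the log2 fold change was 1.33 ± 0.26 (adjusted p = 0.000499).

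Mrc1 encodes the mannose receptor CD206, an endocytic lectin. It had 156, 271, 350, 199 and 201 CPM in bleomycin vehicle lungs, against 82.7, 79.6, 90.7, 88.7 and 69.2 CPM in saline vehicle lungs, a log2 fold change of 1.49 ± 0.21 (adjusted p = 1.95e-05). Clec4n had 30.9, 42.7, 60.3, 34.9 and 36.3 CPM in bleomycin vehicle lungs, against 3.93, 3.08, 2.73, 3.44 and 1.81 CPM in saline vehicle lungs, a log2 fold change of 3.73 ± 0.31 (adjusted p = 2.35e-07). Pdcd1lg2, which encodes PD-L2, the second ligand of the inhibitory receptor PD-1, was low throughout. It had 1.01, 1.12, 2.49, 1.72 and 1.28 CPM in bleomycin vehicle lungs, against 0.681, 0.416, 0.780, 0.906 and 0.213 CPM in saline vehicle lungs. Its lowest bleomycin library was close to its highest saline library, and the log2 fold change was 1.27 ± 0.37 (adjusted p = 0.0105). Of the 10 libraries in which Pdcd1lg2 reached the filter's level in this model, 9 were from bleomycin lungs.

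Under saracatinib, 6 of the 8 genes fell in bleomycin lungs against bleomycin lungs given vehicle, by 6.34-fold for Arg1, 4.31-fold for Retnla, 2.62-fold for Clec4n, 2.40-fold for Chil3, 1.96-fold for Mrc1 and 1.45-fold for Il4ra. Ccl17 and Pdcd1lg2 did not pass the test. Among all genes tested, 14.0% were called either way and 8.71% lower. The median log2 fold change of the 8 genes was -1.12, and that of all tested genes 0.01. For each of the 6, every lung with saracatinib was below every lung with vehicle, as was so for 5.89% of all tested genes. The bleomycin vehicle libraries also serve in the injury comparison above, so the 2 comparisons share them.

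Il4ra had 262, 193, 191, 230 and 232 CPM with saracatinib, just under the lowest vehicle lung at 267 CPM. The log2 fold change was -0.54 ± 0.15 (adjusted p = 0.0237). That call was lost without library 2 or library 3 of the saracatinib group, and without library 3 of the vehicle group (-0.37, adjusted p = 0.0897 for the last). Arg1 had 2.12, 0.373, 1.35, 2.28 and 1.38 CPM with saracatinib, so 4 of these lungs still lay above every saline vehicle lung and 1 lay among them. Its log2 fold change was -2.67 ± 0.47 (adjusted p = 0.00230), and -2.07 without library 3 of the vehicle group (adjusted p = 0.00604).

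Chil3 had 171, 172, 110, 182 and 189 CPM with saracatinib, a log2 fold change of -1.27 ± 0.34 (adjusted p = 0.0175). The other 4 lungs lay close together and library 3 well below them; without library 3, the adjusted p was 0.0549. Retnla had 77.5, 28.7, 20.9, 50.5 and 43.0 CPM with saracatinib, a log2 fold change of -2.11 ± 0.40 (adjusted p = 0.00329). Its range lay within that of saline vehicle lungs, 19.0 to 79.6 CPM, where library 3 alone sets the top. The other saline vehicle lungs had 33.9 CPM at most, and libraries 1, 4 and 5 with saracatinib lay above that.

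Ccl17 had 7.44, 3.35, 3.80, 8.73 and 5.26 CPM with saracatinib. Libraries 1 and 4 lay within the vehicle range and the other 3 below it, so the log2 fold change of -0.54 ± 0.25 was not called (adjusted p = 0.149). Mrc1 had 129, 112, 91.8, 128 and 141 CPM with saracatinib, a log2 fold change of -0.97 ± 0.21 (adjusted p = 0.00551). Clec4n had 24.6, 11.0, 10.4, 19.2 and 12.9 CPM with saracatinib, a log2 fold change of -1.39 ± 0.27 (adjusted p = 0.00337). The lowest saracatinib lung had 91.8 CPM of Mrc1 and 10.4 CPM of Clec4n, against 90.7 and 3.93 CPM in the highest saline vehicle lung. Against saline lungs given vehicle, Mrc1 was not called in these lungs (adjusted p = 0.118). Pdcd1lg2 had 2.12, 1.19, 0.554, 1.41 and 1.05 CPM with saracatinib, with 1 lung below the vehicle range and the other 4 within it (log2 fold change -0.25 ± 0.33, adjusted p = 0.663).

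Set against saline lungs given vehicle, bleomycin lungs given saracatinib had 1 of the 8 genes called, Clec4n, at a log2 fold change of 2.34 ± 0.31 (adjusted p = 0.000191), where 9.22% of all genes were called, 5.83% higher and 3.39% lower. The other 7 had log2 fold changes from 0.29 for Retnla to 1.20 for Arg1, all above 0. At an unadjusted p under 0.05 there were 5 of the 8: Ccl17, Clec4n, Il4ra, Mrc1 and Pdcd1lg2. Ccl17 was called as well by DESeq2 (adjusted p = 0.0322), and Mrc1 when only these 2 groups were fitted (adjusted p = 0.00764). Leaving out 1 library at a time gave 1 to 3 called genes, adding Ccl17, Il4ra or Pdcd1lg2.

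In saline lungs, saracatinib gave no call among the 8 genes in edgeR's quasi-likelihood test or in DESeq2, where 0.00531% of all genes were called. At an unadjusted p under 0.05 there was 1, Mrc1, with 90.9, 68.8, 44.1, 59.7 and 40.1 CPM in saracatinib lungs, against 82.7, 79.6, 90.7, 88.7 and 69.2 CPM in vehicle lungs. Of the saracatinib lungs 4 lay below every vehicle lung and 1 above them all (log2 fold change -0.44 ± 0.21, adjusted p = 0.671). Whether saracatinib did more in bleomycin than in saline lungs was tested as an interaction, which called 1.06% of all genes (0.610% above and 0.446% below 0) and 0 of the 8. The interaction was -3.11 ± 0.81 for Arg1 (adjusted p = 0.0619), -2.23 ± 0.57 for Retnla (adjusted p = 0.0578) and -1.45 ± 0.43 for Clec4n (adjusted p = 0.0914). These and Il4ra were the 4 genes at an unadjusted p under 0.05. DESeq2 called 3 of them, Arg1, Retnla and Clec4n, and edgeR without the low-count filter called Arg1 and Retnla. Leaving out 1 library at a time gave 0 to 3 calls.

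Ad-TGF-β1 moved the genes in both directions. Against empty vector lungs given vehicle, Ad-TGF-β1 lungs given vehicle had 6 of the 8 genes higher, by 3.25-fold for Chil3, 2.98-fold for Clec4n and between 1.38-fold and 1.97-fold for Mrc1, Ccl17, Il4ra and Pdcd1lg2. Retnla was 2.26-fold lower, and Arg1 was not called. Of 18834 genes tested, 25.8% were called either way, 11.5% higher and 14.3% lower. The median log2 fold change of the 8 genes was 0.78, and that of all tested genes -0.01. Every Ad-TGF-β1 vehicle library was above every empty vector vehicle library for 5.89% of all tested genes, and below for 3.05%.

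Il4ra had 283, 298, 229, 180 and 260 CPM in Ad-TGF-β1 vehicle lungs, against 168, 133, 120, 125 and 139 CPM in empty vector vehicle lungs. The groups did not overlap, and the log2 fold change was 0.85 ± 0.15 (adjusted p = 0.000900). Arg1 had 0.641, 1.09, 0.768, 1.35 and 1.33 CPM in Ad-TGF-β1 vehicle lungs, against 1.69, 1.43, 1.97, 1.16 and 0.594 CPM in empty vector vehicle lungs. The groups overlapped (log2 fold change -0.45 ± 0.36, adjusted p = 0.368).

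Chil3 had 286, 296, 259, 364 and 244 CPM in Ad-TGF-β1 vehicle lungs, against 232, 83.5, 52.1, 39.7 and 33.6 CPM in empty vector vehicle lungs. Library 1 of the controls came close to the Ad-TGF-β1 lungs, and the other 4 were far below. The log2 fold change was 1.70 ± 0.47 (adjusted p = 0.0124), and 2.46 without that control library. Retnla had 27.3, 30.3, 33.8, 33.1 and 35.2 CPM in Ad-TGF-β1 vehicle lungs, against 45.3, 39.1, 138, 76.3 and 57.1 CPM in empty vector vehicle lungs. Ad-TGF-β1 lungs were all alike, the controls spread widely above them, and the groups did not overlap. The log2 fold change was -1.18 ± 0.26 (adjusted p = 0.00362), and -0.80 without control library 3 (the smallest of the values with 1 library left out; their highest adjusted p was 0.0126).

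Ccl17 had 3.26, 7.27, 3.93, 4.83 and 4.73 CPM in Ad-TGF-β1 vehicle lungs, against 3.79, 2.05, 3.20, 2.81 and 2.47 CPM in empty vector vehicle lungs. One Ad-TGF-β1 lung lay within the control range (log2 fold change 0.71 ± 0.22, adjusted p = 0.0207). This call was lost without library 2 or 5 of the controls or library 2 of the Ad-TGF-β1 lungs, and when only these 2 groups were fitted (adjusted p = 0.0551). Mrc1 had 119, 126, 110, 112 and 120 CPM in Ad-TGF-β1 vehicle lungs, against 108, 72.9, 88.0, 83.8 and 68.7 CPM in empty vector vehicle lungs. The groups came close without overlapping (log2 fold change 0.46 ± 0.12, adjusted p = 0.00900).

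Clec4n had 17.9, 18.0, 12.9, 10.6 and 12.4 CPM in Ad-TGF-β1 vehicle lungs, against 8.39, 3.89, 5.66, 3.20 and 2.47 CPM in empty vector vehicle lungs, with no overlap (log2 fold change 1.57 ± 0.30, adjusted p = 0.00141). Pdcd1lg2 had 2.62, 3.17, 1.62, 2.32 and 2.29 CPM in Ad-TGF-β1 vehicle lungs, against 1.45, 1.33, 1.80, 0.776 and 0.594 CPM in empty vector vehicle lungs. The lowest Ad-TGF-β1 lung lay below the highest control (log2 fold change 0.98 ± 0.31, adjusted p = 0.0244). This call was lost without library 4 or 5 of the controls or library 1 or 2 of the Ad-TGF-β1 lungs, where the highest adjusted p was 0.0719.

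In Ad-TGF-β1 lungs, saracatinib gave no call among the 8 genes in edgeR's quasi-likelihood test or in DESeq2, where 0.0903% of all genes were called, 0.0478% higher and 0.0425% lower. At an unadjusted p under 0.05 there was 1, Il4ra, with 190, 168, 182, 142 and 163 CPM in saracatinib lungs, against 283, 298, 229, 180 and 260 CPM in vehicle lungs. Of the saracatinib lungs 3 lay below every vehicle lung and the other 2 just above the lowest of them (log2 fold change -0.56 ± 0.15, adjusted p = 0.286). The other 7 had log2 fold changes from -0.31 ± 0.29 for Clec4n to 0.06 ± 0.27 for Retnla. Retnla was at 30.8, 39.7, 27.8, 33.2 and 34.2 CPM with saracatinib, close to the narrow band seen with vehicle. Chil3 ran from 115 to 492 CPM with saracatinib, against 244 to 364 CPM with vehicle, so the saracatinib lungs were the more spread.

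In empty vector lungs, saracatinib also gave no call among the 8 genes in edgeR or DESeq2, where 0.00531% of all genes were called. At an unadjusted p under 0.05 there was 1, Retnla, with 23.4, 45.1, 50.4, 46.1 and 35.7 CPM in saracatinib lungs, against 45.3, 39.1, 138, 76.3 and 57.1 CPM in vehicle lungs. These groups overlapped (log2 fold change -0.85 ± 0.26, adjusted p = 0.385), and the gene was called without vehicle library 1 (adjusted p = 0.0390). The interaction of saracatinib and Ad-TGF-β1 called 0.00% of all genes. In that test 2 of the 8 genes had an unadjusted p under 0.05, Il4ra (-0.75 ± 0.21) and Retnla (0.91 ± 0.37), both at an adjusted p of 0.481, and DESeq2 called 0.

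Set against empty vector lungs given vehicle, Ad-TGF-β1 lungs given saracatinib had 5 of the 8 genes called, where 14.0% of all genes were called, 5.78% higher and 8.25% lower. Chil3 (1.56 ± 0.47, adjusted p = 0.0329), Clec4n (1.27 ± 0.31, adjusted p = 0.0114), Pdcd1lg2 (0.95 ± 0.31, adjusted p = 0.0464) and Mrc1 (0.43 ± 0.12, adjusted p = 0.0224) were higher on the log2 scale. Retnla was lower (-1.12 ± 0.26, adjusted p = 0.0106). With only these 2 groups in the fit, 0 were called by edgeR, with adjusted p-values from 0.0502 for Clec4n to 0.111 for Chil3 among the 5.

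**Figure D2:**
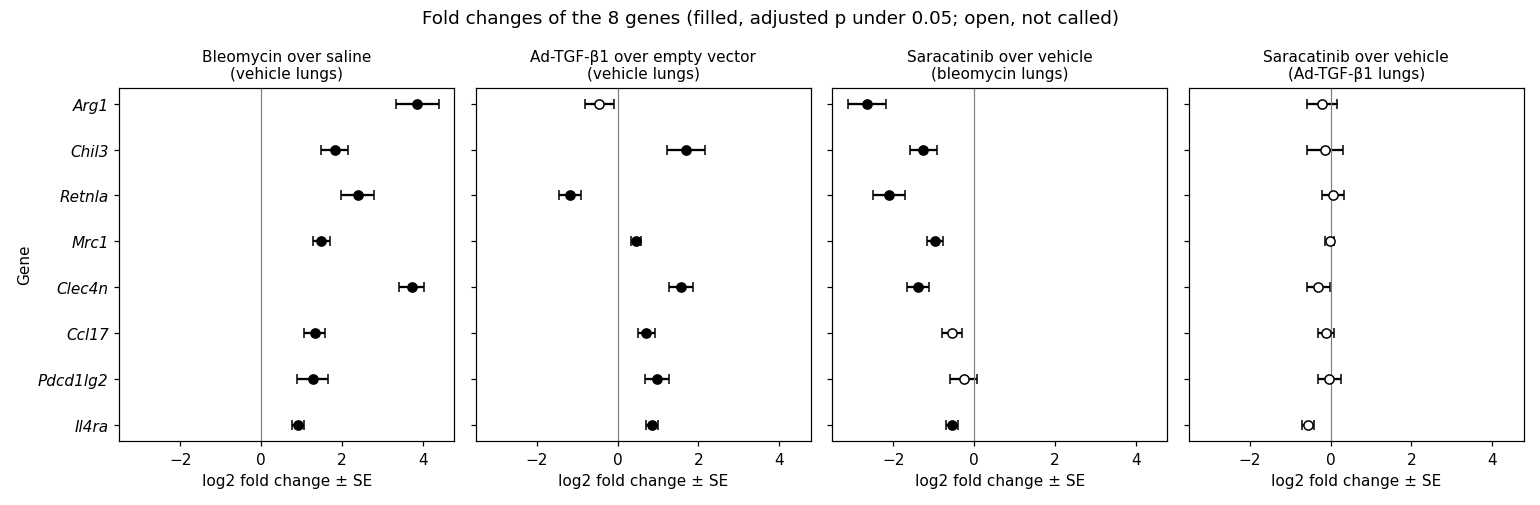
Log2 fold change ± SE of the 8 genes in 4 comparisons of 5 against 5 lungs, with filled points for an adjusted p under 0.05 and open points for the rest. All 8 points are filled and above 0 for bleomycin, 6 are filled and below 0 for saracatinib in bleomycin lungs, Retnla is filled and below 0 for Ad-TGF-β1, and none is filled for saracatinib in Ad-TGF-β1 lungs.

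The difference between the models was tested across all 40 libraries. The injury effect differed, with bleomycin minus Ad-TGF-β1 above 0, for 4 of the 8 genes, where 15.1% of all genes were called, 8.64% above and 6.47% below 0. On the log2 scale the difference was 4.33 ± 0.67 for Arg1 (adjusted p = 3.50e-05), 3.58 ± 0.50 for Retnla (adjusted p = 7.81e-06), 2.17 ± 0.45 for Clec4n (adjusted p = 0.000960) and 1.04 ± 0.25 for Mrc1 (adjusted p = 0.00412). The same 4 genes had an unadjusted p under 0.05, and 4 were called whichever single library was left out. Chil3 (0.13 ± 0.59), Il4ra (0.07 ± 0.22), Pdcd1lg2 (0.30 ± 0.49) and Ccl17 (0.63 ± 0.35) were not called, and their standard errors leave room for differences of either sign. Markers of macrophages of all kinds differed the same way, with 8 of 12 called above 0 and none below (median 1.11), among them Msr1 (2.08 ± 0.49) and the complement gene C1qa (1.30 ± 0.34), while the lysozyme gene Lyz2, named here and below after its values were seen, was not called (0.04 ± 0.27). Their part in the differences of the members was not tested. The effect of saracatinib in injured lungs differed for 3 genes, where 2.46% of all genes were called, 1.05% above and 1.41% below 0. It was more negative in the bleomycin model by -2.45 ± 0.66 for Arg1 (adjusted p = 0.0404), -2.16 ± 0.50 for Retnla (adjusted p = 0.0198) and -0.94 ± 0.25 for Mrc1 (adjusted p = 0.0380). These calls were sensitive to single libraries: without library 3 of the bleomycin vehicle group 0 were left, with adjusted p-values of 0.119 for Arg1, 0.0567 for Retnla and 0.118 for Mrc1. With each of the 40 libraries left out in turn, the call was lost in 12 cases for Arg1, 11 for Mrc1 and 1 for Retnla. The cases for Arg1 and Mrc1 included libraries of the injured groups of both models, with saracatinib and with vehicle. Of the 12 macrophage markers 0 were called by edgeR in this difference and 7 had an unadjusted p under 0.05, all 7 below 0 (median of the 12, -0.68). The models differ in route, agent and control, and in whatever set their libraries apart, and these cannot be told apart.

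Most macrophage markers rose in both models, whereas in Ad-TGF-β1 vehicle lungs Retnla fell and Arg1 was not called. The list of 12 markers of macrophages of all kinds summed to 3156 to 3780 CPM in bleomycin vehicle lungs, against 1030 to 1940 CPM in saline vehicle lungs, and 11 of the 12 rose, none fell and none was at 0 in any library (median log2 fold change 2.01). Under saracatinib the sum was 2274 to 2859 CPM in bleomycin lungs, against 3156 to 3780 CPM with vehicle, and 9 of the 12 fell (median -0.90). Against saline lungs given vehicle, bleomycin lungs given saracatinib still had 8 of the 12 called higher and 0 lower (median 0.99). Of the 8 members, 1 was called in that comparison, where 9.22% of all genes were called. At an unadjusted p under 0.05 in edgeR there were 5 of the 8, and their median log2 fold change as a set of 8 was 0.67, against -0.02 for all tested genes. In Ad-TGF-β1 vehicle lungs the sum was 2924 to 3384 CPM, against 1357 to 2327 CPM in empty vector vehicle lungs, and 10 of the 12 rose (median 0.81). With saracatinib in Ad-TGF-β1 lungs the sum was 2223 to 3222 CPM, and 0 of the 12 were called by edgeR or at an unadjusted p under 0.05. The sum is mostly Lyz2, a gene that neutrophils and alveolar type 2 cells also carry: it made up 63.4 ± 7.10% of the sum in bleomycin vehicle lungs, against 72.8 ± 5.28% in saline vehicle lungs. Its log2 fold change in bleomycin lungs, 0.87 ± 0.22, was below the list's median, and under saracatinib in bleomycin lungs it was not called (-0.20 ± 0.22). The other 11 markers summed to 1074 to 1549 CPM in bleomycin vehicle lungs, against 357 to 453 CPM in saline vehicle lungs, and to 555 to 908 CPM in bleomycin lungs given saracatinib. They summed to 777 to 937 CPM in Ad-TGF-β1 vehicle lungs, against 373 to 557 CPM in empty vector vehicle lungs. The part of macrophage number in the changes of the 8 genes was not tested.

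Each member was also set against the summed macrophage markers, once with all 12 and once without Lyz2, an alternative chosen after seeing the data. Arg1 was 0.291 ± 0.249% of the full sum in bleomycin vehicle lungs, against 0.0464 ± 0.0350% in saline vehicle lungs, and the groups overlapped. It was 0.0558 ± 0.0258% in bleomycin lungs given saracatinib. Without Lyz2 the share of Arg1 was 0.722 ± 0.476% in bleomycin vehicle lungs, against 0.159 ± 0.0955% in saline vehicle lungs, where the lowest bleomycin lung at 0.299% just cleared the highest saline lung at 0.298%.

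Clec4n was 1.23 ± 0.393% of the full sum in bleomycin vehicle lungs, against 0.189 ± 0.0169% in saline vehicle lungs, and without Lyz2 it was 3.30 ± 0.399% in bleomycin vehicle lungs, against 0.719 ± 0.165% in saline vehicle lungs, with no overlap either way. Retnla was 5.74 ± 2.54% of the full sum in bleomycin vehicle lungs, against 2.49 ± 1.95% in saline vehicle lungs, and without Lyz2 it was 15.5 ± 5.90% in bleomycin vehicle lungs, against 8.67 ± 6.02% in saline vehicle lungs, with overlap either way. Il4ra was 9.65 ± 2.93% of the full sum in bleomycin vehicle lungs, against 10.8 ± 1.27% in saline vehicle lungs, with overlap. Without Lyz2 it was 26.1 ± 2.83% in bleomycin vehicle lungs, against 40.5 ± 6.68% in saline vehicle lungs, and the groups did not overlap.

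The direction for Mrc1, Ccl17 and Pdcd1lg2 turned with the sum used. On the log2 scale the share in bleomycin vehicle lungs minus that in saline vehicle lungs was 0.34 for Mrc1, 0.25 for Ccl17 and 0.31 for Pdcd1lg2 with all 12 markers, and -0.093 for Mrc1, -0.18 for Ccl17 and -0.12 for Pdcd1lg2 without Lyz2. For Chil3 the difference was 0.78 with all 12 markers and 0.35 without Lyz2, with overlap either way. For saracatinib against vehicle in bleomycin lungs the difference turned for Ccl17 (-0.25 and 0.10) and Il4ra (-0.15 and 0.20). It was smaller without Lyz2 but still below 0 for Arg1 (-2.17 and -1.82), Retnla (-1.79 and -1.44) and Clec4n (-1.07 and -0.72). The same held for Chil3 (-0.89 and -0.54) and Mrc1 (-0.56 and -0.21). For Pdcd1lg2 it was above 0 with either sum (0.053 and 0.40). In Ad-TGF-β1 vehicle lungs the share of Retnla in the full sum was 1.03 ± 0.136%, against 4.34 ± 2.55% in empty vector vehicle lungs, and that of Arg1 was 0.0337 ± 0.0117%, against 0.0788 ± 0.0265%. These shares are descriptions with no test, and other cell types can also make these transcripts.

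**Figure D3:**
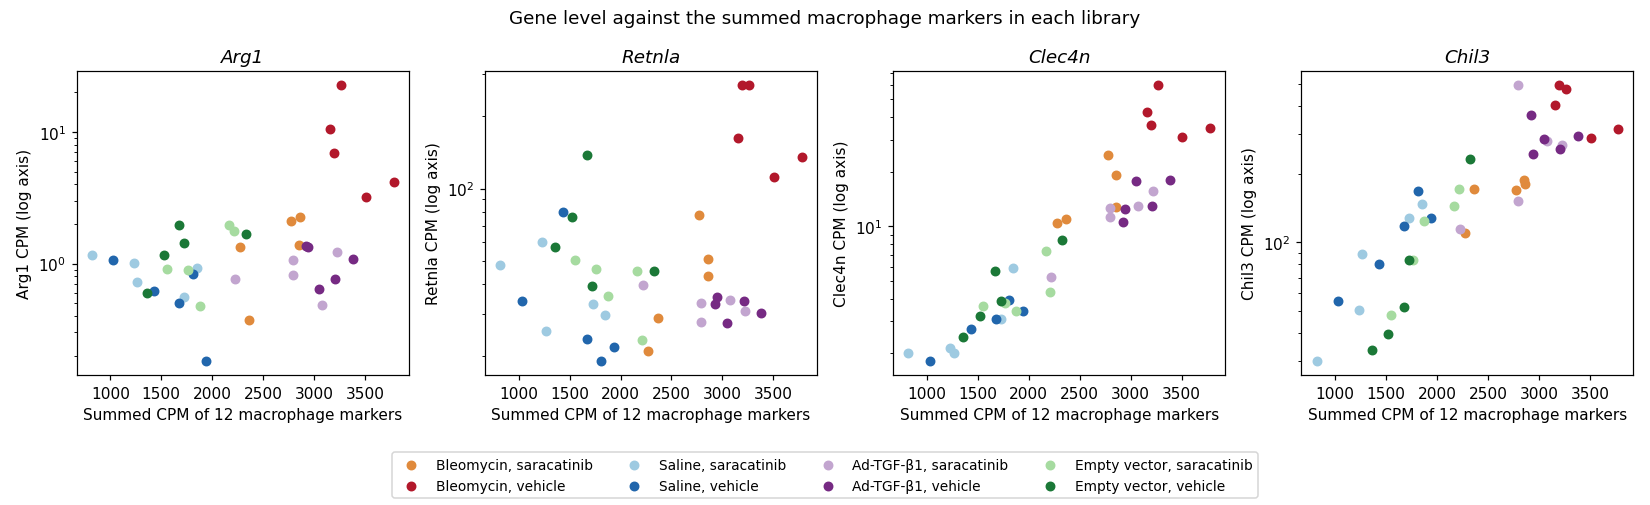
Level of Arg1, Retnla, Clec4n and Chil3 in CPM (log axis) against the summed CPM of 12 macrophage markers, with 1 point per library colored by group. The sum, which is mostly Lyz2, runs from 3156 to 3780 CPM in bleomycin lungs and from 2924 to 3384 CPM in Ad-TGF-β1 lungs given vehicle, while the other 11 markers sum to 1074 to 1549 CPM in the bleomycin lungs and to 777 to 937 CPM in the Ad-TGF-β1 lungs.

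Other cell types that could carry or answer type 2 signals were also followed. Markers of T and innate lymphoid cells summed to 117 to 139 CPM in bleomycin vehicle lungs, against 60.3 to 72.9 CPM in saline vehicle lungs, with 9 of 11 higher and none at 0 in any library. Dendritic cell markers, of cells that are a known source of Ccl17, summed to 248 to 264 CPM in bleomycin vehicle lungs, against 163 to 201 CPM in saline vehicle lungs, with 7 of 12 higher and 1 lower. Of 3 tested eosinophil markers 0 were called by edgeR or had an unadjusted p under 0.05, and the list summed to 11.1 CPM at most in bleomycin vehicle lungs. Of that list, Epx was at 0 in 39 of the 40 libraries, Ear6 in 20, Ccr3 in 12 and Prg2 in 2. Il5ra, Alox15 and Siglecf were at 0 in none, so low levels of 1 marker do not show that eosinophils were absent. Of 11 alveolar macrophage markers, 4 rose and 3 fell in bleomycin vehicle lungs: the protease gene Ctsk (2.44 ± 0.23) and the proton pump subunit gene Atp6v0d2 (2.40 ± 0.28) were higher, and the keratin gene Krt79 (-2.57 ± 0.54) was lower. In Ad-TGF-β1 vehicle lungs 6 of 11 rose, among them Atp6v0d2 (1.41 ± 0.34) and the scavenger receptor gene Marco (1.15 ± 0.33), and 0 fell. Of 9 monocyte markers 5 were higher and 1 lower in bleomycin vehicle lungs. Their sum is mostly Ace, named after its values were seen, which lung capillary endothelium also carries and which was not called (0.31 ± 0.17). Without Ace it was 140 to 405 CPM in bleomycin vehicle lungs, against 130 to 192 CPM in saline vehicle lungs, with overlap. Lymphatic endothelium, which also carries the mannose receptor, had markers that summed to 356 to 683 CPM in bleomycin vehicle lungs, against 221 to 437 CPM in saline vehicle lungs, with overlap and 5 of 6 higher. Of these, named after their values were seen, Pdpn had a mean of 140 CPM in bleomycin vehicle lungs, against 70.8 CPM in saline vehicle lungs. Lyve1 had a lower mean in bleomycin vehicle lungs, 119 CPM against 133 CPM. Neutrophil markers had 1 of 7 higher and 1 lower. The part of these cells in the results for the 8 genes was not tested.

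Of 18 tested ligands, receptors and factors of the wider type 2 pathway, 5 rose and 3 fell in bleomycin vehicle lungs (median log2 fold change 0.17). These are 27.8% and 16.7%, near the 20.6% and 20.3% of all tested genes. Those that rose included the early response factor gene Egr2 (1.55 ± 0.37), the IL-33 receptor gene Il1rl1 (1.01 ± 0.16) and the IL-13 receptor gene Il13ra1 (0.74 ± 0.12). Stat6 itself, named here after its values were seen, fell by a small margin in bleomycin vehicle lungs (-0.26 ± 0.06, adjusted p = 0.000891). Under saracatinib in bleomycin lungs, Il13ra1 fell (-0.59 ± 0.12), and Gata3, a factor of type 2 lymphocytes (0.67 ± 0.19), and Stat6 (0.18 ± 0.06) rose. In Ad-TGF-β1 vehicle lungs 4 of 18 rose and 1 fell, with the alarmin gene Il33 at 0.82 ± 0.24 and the feedback inhibitor gene Socs1 at 0.62 ± 0.18.

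Of 22 further markers of alternative activation, 12 rose and 0 fell in bleomycin vehicle lungs (median log2 fold change 0.72), among them the elastase gene Mmp12 (4.43 ± 0.37), the scavenger receptor gene Msr1 (3.46 ± 0.37), the β-glucan receptor gene Clec7a (2.78 ± 0.28) and the IL-1 receptor antagonist gene Il1rn (2.38 ± 0.31). Saracatinib in bleomycin lungs left 7 of the 22 lower and 1 higher (median -0.29): the growth factor gene Igf1 fell (-1.53 ± 0.27), as did Msr1 (-1.34 ± 0.32), which is also 1 of the 12 macrophage markers, and Il1rn (-1.21 ± 0.28), and the low-affinity IgE receptor gene Fcer2a, carried mainly by B cells, rose (1.11 ± 0.26). Of the 22, 10 rose and 0 fell in Ad-TGF-β1 vehicle lungs, led by Mmp12 (2.24 ± 0.28), Clec7a (1.98 ± 0.26), Ear2 (1.54 ± 0.34) and the PD-L1 gene Cd274 (1.45 ± 0.25).

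Around arginase, 12 of 19 genes of arginine and polyamine metabolism rose and 1 fell in bleomycin vehicle lungs (median log2 fold change 0.45). They included the nitric oxide synthase gene Nos2 (2.02 ± 0.28), which uses the same amino acid as arginase, the amino acid transporter gene Slc7a5 (2.01 ± 0.21), the creatine synthesis gene Gatm (1.51 ± 0.24) and the second arginase gene Arg2 (1.22 ± 0.20). Saracatinib in bleomycin lungs left 10 of the 19 lower and 0 higher (median -0.30), with Slc7a5 (-1.12 ± 0.20), the arginine transporter gene Slc7a2 (-0.96 ± 0.18), Arg2 (-0.92 ± 0.20) and Gatm (-0.90 ± 0.23). In Ad-TGF-β1 vehicle lungs 4 of 19 rose, led by Arg2 (1.10 ± 0.26), and 1 fell. The injury effect was larger in the bleomycin model for Slc7a5 (difference 1.62 ± 0.29), Nos2 (1.30 ± 0.36), Slc7a2 (1.03 ± 0.24) and the ornithine decarboxylase gene Odc1 (0.73 ± 0.19).

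Beside Clec4n, all 13 tested genes of the Dectin-2 family and its signalling rose in bleomycin vehicle lungs (median log2 fold change 1.22), including Clec7a, the signalling gene Malt1 (1.89 ± 0.18) and the lectin genes Clec4a2 (1.87 ± 0.28) and Clec4d (1.81 ± 0.40). In bleomycin lungs 6 of the 13 fell under saracatinib, with Clec4e (-1.41 ± 0.44), Clec4a2 (-0.91 ± 0.26), Clec7a (-0.90 ± 0.26) and the adaptor gene Fcer1g (-0.65 ± 0.20). After Ad-TGF-β1, 9 of the 13 rose and 0 fell in vehicle lungs. Around PD-L2, 6 of 7 genes rose in bleomycin vehicle lungs and 1 fell, with the inhibitory receptor genes Ctla4 (3.19 ± 0.50) and Pdcd1 (2.08 ± 0.50), and in Ad-TGF-β1 vehicle lungs 4 of 7 rose, with Cd274 and Pdcd1 (1.29 ± 0.38). Of the few tested genes of the CCR4 axis, Ccl22, the other main ligand of CCR4, was higher in bleomycin vehicle lungs (0.55 ± 0.16) and in Ad-TGF-β1 vehicle lungs (0.45 ± 0.16). The chitinase-like gene Chil1 was called in Ad-TGF-β1 vehicle lungs (0.78 ± 0.13) and not in bleomycin vehicle lungs (0.20 ± 0.17).

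Genes of classical activation, the state evoked by interferon gamma and bacterial products, rose in 7 of 16 cases and fell in 2 in bleomycin vehicle lungs (median log2 fold change 0.80). Nos2 is also on that list, beside the chemokine gene Cxcl10 (1.85 ± 0.43) and the feedback gene Socs3 (1.81 ± 0.32). In Ad-TGF-β1 vehicle lungs 10 of 15 rose and 1 fell (median 0.64), led by the interferon-driven chemokine genes Cxcl9 (2.90 ± 0.47) and Cxcl10 (2.31 ± 0.45). The injury effect was smaller in the bleomycin model for the interferon-driven genes Ido1 (difference -2.38 ± 0.59) and Gbp2 (-1.98 ± 0.33), and larger for Nos2 and Socs3 (1.27 ± 0.39). With saracatinib in bleomycin lungs 1 of 16 was lower, Socs3 (-1.10 ± 0.32). In Ad-TGF-β1 lungs saracatinib gave 0 called genes by edgeR in the 8 lists drawn, and from 0 to 5 genes per list at an unadjusted p under 0.05, the 5 among the 18 type 2 genes.

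**Figure D4:**
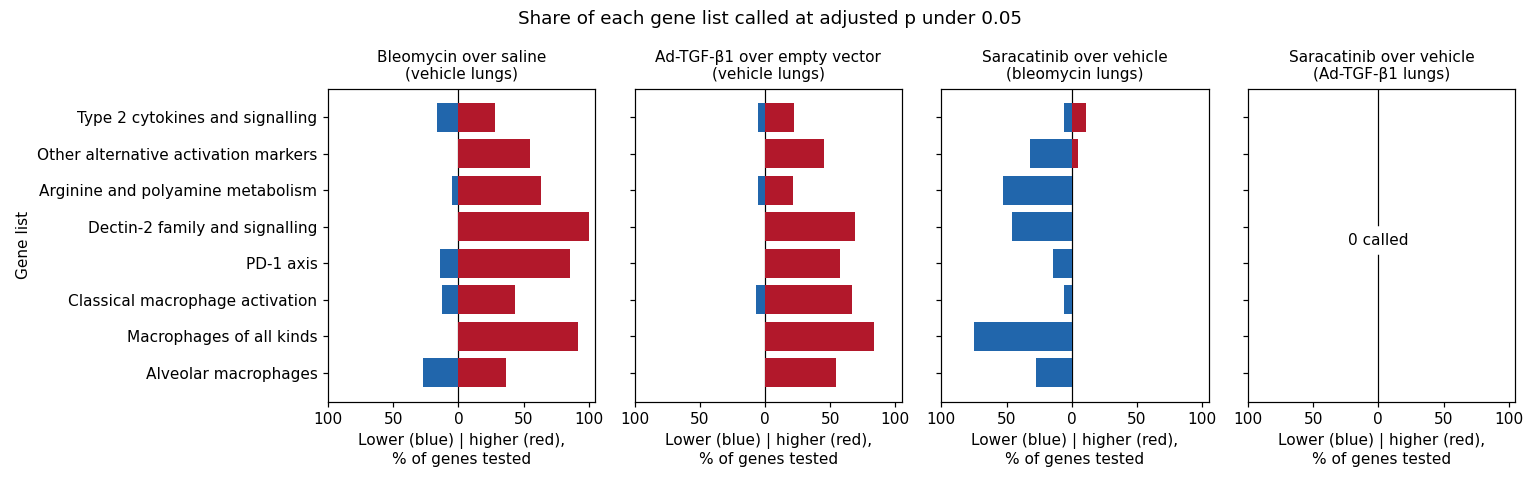
Share of tested genes in 8 gene lists that were called higher (red, to the right) or lower (blue, to the left) in 4 comparisons, in percent. In the background of all genes 20.6% were called higher and 20.3% lower for bleomycin, 11.5% and 14.3% for Ad-TGF-β1, and 5.31% and 8.71% for saracatinib in bleomycin lungs, and no gene of these lists was called for saracatinib in Ad-TGF-β1 lungs.

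Across the 8 group means of log2 CPM, likeness is given as Pearson's r (n = 8 groups) and is a description. Arg1 and Retnla were close to each other (0.96), as were Ccl17 and Clec4n (0.97) and Mrc1 and Clec4n (0.95). Retnla and Pdcd1lg2 were the least alike (0.08), since Pdcd1lg2 was highest in both Ad-TGF-β1 groups, at 2.35 ± 0.416 CPM with saracatinib and 2.41 ± 0.564 CPM with vehicle. Among 17693 named genes with a mean of at least 1 CPM, the pattern most like that of Arg1 was that of the activin chain gene Inhba (0.98), and the next that of Sulf2 (0.98). For Retnla it was the phosphate transporter gene Slc20a1 (0.99), for Chil3 the coagulation factor gene F10 (0.99), for Mrc1 Rab3il1 (0.99) and for Clec4n the lysosomal protein gene Psap (1.00). Syt12 was most like Ccl17 (1.00), the TNF receptor gene Tnfrsf1a most like Il4ra (0.99) and the phosphatase gene Ptpn22 most like Pdcd1lg2 (0.99). The second of each were Zfp516 for Retnla (0.97), Sumf1 for Chil3 (0.99), Esd for Mrc1 (0.99), Shtn1 for Clec4n (1.00), Manba for Ccl17 (0.99), St3gal1 for Il4ra (0.98) and AC124231.3 for Pdcd1lg2 (0.99). These are the highest r among all genes searched.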

How the data were processed

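Left lung RNA was sequenced in 40 libraries after rRNA depletion with a stranded kit, per the labels' protocols. The deposited tables hold whole-number counts per gene for each library, 1 table per model. Per the submitters' processing notes, STAR 2.6.1d, Picard, featureCounts of Subread 1.6.3 and edgeR were used, and the builds mm9 and GRCm38 are named; no source used here gives the strand setting. Gene symbols came from GENCODE M21, for 55450 of 55536 identifiers.

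Genes passing edgeR's filterByExpr (minimum count 10) were tested with edgeR 4.0.16 in R 4.3.3 by the quasi-likelihood test with TMM scaling and Benjamini-Hochberg adjustment over all tested genes, and were called at an adjusted p under 0.05. Each fit held the 4 groups of 1 model, and differences between models were fitted over all 40 libraries. The standard error is the log2 fold change divided by the square root of F. DESeq2 1.42.0, its size factors in edgeR, no filter, only the compared groups, and each library left out were the alternatives. The fits were also run on simulated data in which few genes were changed, unlike the bleomycin and Ad-TGF-β1 comparisons here, so no support is drawn from that run. Replicate numbers are accession order.

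The 8 genes and the lists were chosen with earlier results of these data known. Besides the 8 genes, the text names up to 4 called genes per list, those with the largest change at a mean of at least 1 CPM, and the 2 genes most alike in pattern; others are said to have been chosen after their values were seen. Counting error and the spread of 5 libraries limit the precision, most of all for Arg1 and Pdcd1lg2.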

Additional observations from a re-analysis of the deposited data

Results flagged for a closer look

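In 2 of 64 sets of 5 libraries, 1 library lay far from the other 4 by Dixon's test on log2 CPM, where chance gives about 1 in 20. Chil3 in library 3 of bleomycin lungs given saracatinib had 110.4 CPM, with a gap to the nearest library of 0.809 of the group's range. Il4ra in library 3 of bleomycin lungs given vehicle had 477 CPM, with a gap of 0.771 of the range. In that library 6 of the 8 genes were the highest of their group.

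The injury effect differed between models, as bleomycin minus Ad-TGF-β1 on the log2 scale, by 4.33 for Arg1, 3.58 for Retnla, 2.17 for Clec4n and 1.04 for Mrc1. In the injury difference 8 of 12 macrophage markers were also called above 0 (median 1.11), and their part was not tested. The saracatinib effect in injured lungs differed by -2.45 for Arg1, -2.16 for Retnla and -0.94 for Mrc1. These 7 differences passed edgeR's quasi-likelihood test across all 40 libraries. The last 3 did not pass without library 3 of the bleomycin vehicle group. Leaving out other single libraries of the injured groups also lost the calls of Arg1 and Mrc1.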

How the results depend on the processing

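Of 341 values of single members that had an adjusted p in 4 other settings, 325 kept their direction and side of the threshold. Of the rest, 7 passed it newly, 9 no longer passed it and 0 changed sign. Of 2240 values with 1 library left out, these counts were 2114, 15, 57 and 54. A member without an adjusted p in a setting was counted as not called there. For bleomycin lungs given saracatinib against saline with vehicle, 2 members were called by DESeq2 and 2 with only the compared groups, in place of 1. The saracatinib by bleomycin interaction gave 3 with DESeq2 and 2 without the filter, in place of 0. Ad-TGF-β1 with saracatinib against empty vector with vehicle gave 0 with only the compared groups, in place of 5. The saracatinib difference between models gave 1 without the filter, in place of 3. The cause was not tested. With 1 library left out, counts ran from 8 to 8 for bleomycin, 4 to 6 for saracatinib in bleomycin lungs, 0 to 0 for saracatinib in saline lungs, 1 to 3 for bleomycin with saracatinib against saline, 0 to 3 for the bleomycin interaction, 5 to 7 for Ad-TGF-β1, 0 to 0 for saracatinib in Ad-TGF-β1 lungs, 0 to 1 in empty vector lungs, 2 to 6 for Ad-TGF-β1 with saracatinib against empty vector, 0 to 1 for the Ad-TGF-β1 interaction, 4 to 4 for the injury difference and 0 to 3 for the saracatinib difference. Log2 values that changed sign, none of them called with all libraries, ran for saracatinib in saline lungs from -0.089 to 0.67 (Retnla), -0.13 to 0.056 (Il4ra), -0.25 to 0.11 (Pdcd1lg2) and -0.37 to 0.18 (Clec4n). They ran from -0.017 to 0.83 for Retnla in bleomycin with saracatinib against saline, and from -0.44 to 0.060 for Pdcd1lg2 in the bleomycin interaction. For saracatinib in Ad-TGF-β1 lungs they ran from -0.50 to 0.047 (Chil3), -0.010 to 0.12 (Retnla), -0.082 to 0.041 (Mrc1), -0.23 to 0.085 (Ccl17) and -0.13 to 0.090 (Pdcd1lg2), and in empty vector lungs from -0.39 to 0.030 (Arg1), -0.19 to 0.080 (Ccl17) and -0.32 to 0.23 (Clec4n). In the Ad-TGF-β1 interaction they ran from -0.24 to 0.17 (Arg1), -0.19 to 0.12 (Ccl17) and -0.53 to 0.017 (Clec4n), in the injury difference from -0.65 to 0.34 (Chil3) and -0.11 to 0.16 (Il4ra), and in the saracatinib difference from -0.048 to 0.21 (Il4ra) and -0.48 to 0.027 (Pdcd1lg2). No paired analysis was possible because the labels carry no replicate numbers that could tie mice of different groups. Low counts limit Arg1 and Pdcd1lg2 most, with 2 counts in their lowest saline vehicle libraries.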
